A study of Arabidopsis thaliana with 9 samples.

Results

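The 10 genes of a pathway that decides whether a cell of the Arabidopsis root epidermis grows a hair were followed through every expression and accessibility table of the series. They were chosen by gene identifier: SCM (AT1G11130), WER (AT5G14750), MYB23 (AT5G40330), GL3 (AT5G41315), EGL3 (AT1G63650), TTG1 (AT5G24520), GL2 (AT1G79840), CPC (AT2G46410), TRY (AT5G53200) and ETC1 (AT1G01380). All 10 were present among the 23241 genes of the nucleus and whole-cell tables and among the 33550 genes of the bulk table. Every sample came from roots of Arabidopsis thaliana Col-0, the standard laboratory accession, with no transgene or treatment named, and the 2 age groups below were grown under different light and temperature. Nuclei of 7-day-old plants gave 5 RNA libraries and 2 accessibility (ATAC) libraries, each table averaging its libraries within 21 numbered clusters. Bulk RNA of 6-day-old plants came from 1 library of protoplasts, which are cells freed from their walls, and 1 library of intact root tips, which its title calls whole root. A whole-cell table with 20 clusters, lacking cluster 14, matched no labelled sample, so its plants and preparation are unknown. No value below therefore has a replicate error, and no p-value is given.

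In the root epidermis, cells that lie over the cleft between underlying cortical cells become hair cells, and the others stay hairless. SCM, a receptor-like kinase also named SUB, is required for cells to read this position. In future non-hair cells the MYB factor WER, with its close relative MYB23, joins the bHLH proteins GL3 and EGL3 and the WD40-repeat protein TTG1 in a transcription complex. That complex switches on GL2, a homeodomain factor that blocks the hair programme, and also CPC, TRY and ETC1, short MYB proteins without an activation domain. These inhibitors move into neighbouring cells, where they compete with WER for the bHLH partners.

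The cluster tables give, for each gene, an average per 10000 of all RNA molecules counted in a nucleus or cell. Such levels were compared between clusters and not between genes, and 0.5 per 10000 in the highest cluster was taken as the floor for a readable pattern. Of the 10 genes, 7 reached that floor in nuclei, and MYB23, TRY and ETC1 stayed below it. The least value above 0 in a cluster, which is near the worth of a lone molecule, ran from 0.000162 in cluster 11 to 0.0227 in cluster 20. Cluster 20 also had the largest share of genes listed at 0 (37.5%), so its averages are the coarsest. Cluster identity was read from markers. The 8 root hair markers, among them EXPA7, COBL9 and PRP3, summed to 347 in cluster 1, 130 in cluster 2 and 40.2 in cluster 3. The 3 non-hair markers XTH17, ABCB4 and CER4 summed to 43.2 in cluster 6 and to 9.71 in cluster 4, the next highest. XTH17 and CER4 were each highest in cluster 6, but ABCB4 was at 9.29 in cluster 4 and 7.84 in cluster 6. The 3 root cap markers SMB, BRN1 and BRN2 summed to 1.83 in cluster 7 and 0.232 in cluster 9, the next highest, and the 3 mitosis markers to 33.7 in cluster 10. In the whole-cell table the root hair sum was also highest in cluster 1, at 273, and the non-hair sum in cluster 6, at 12.1. That non-hair sum was mostly XTH17, at 11.2. CER4 was highest in cluster 5, at 0.597 against 0.221 in cluster 6, and ABCB4 in cluster 3, at 0.930 against 0.698 in cluster 6. The root cap sum was highest in cluster 10, at 3.55.

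**Figure D1:**
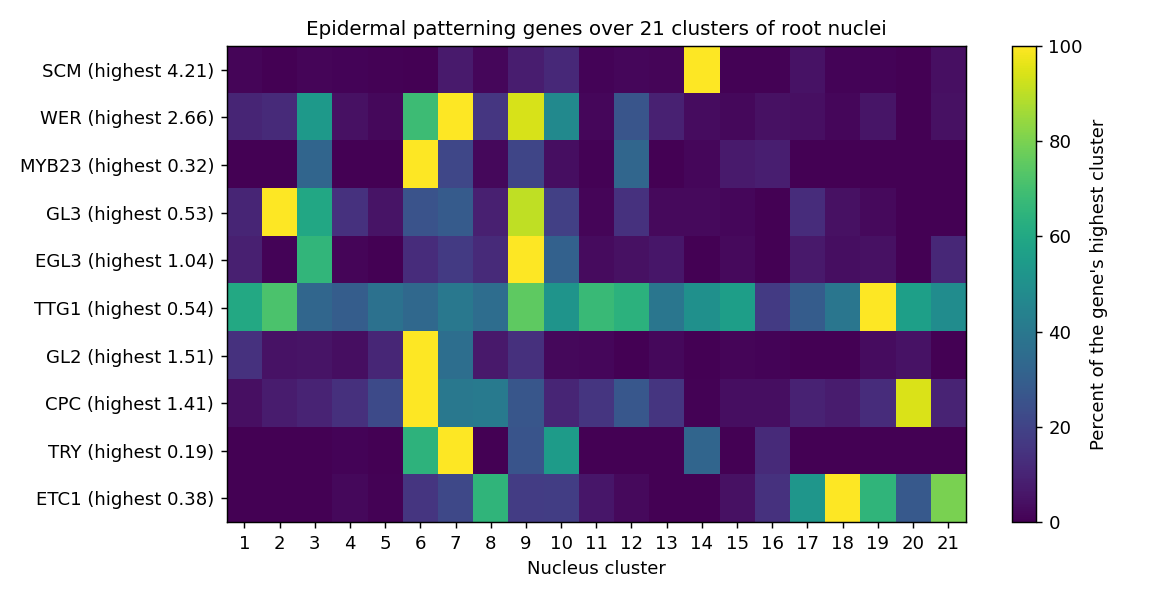
Level of each patterning gene in the 21 clusters of root nuclei, as a percent of the gene's own highest cluster, whose average per 10000 is given beside the name. GL2 and MYB23 are highest in cluster 6, and CPC is at close levels in clusters 6 and 20. GL3 is at close levels in clusters 2 and 9, and EGL3 is highest in cluster 9. SCM peaks in cluster 14 and ETC1 spreads over clusters 17 to 21. MYB23, TRY and ETC1 are under the floor for a readable pattern.

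The receptor gene SCM did not follow the epidermal clusters. Its nucleus level was lowest at 0 in clusters 2 and 20, had a median of 0.0497 and was highest in cluster 14 at 4.21 per 10000. The next clusters were cluster 10 at 0.484, cluster 9 at 0.343 and cluster 7 at 0.310, so the peak was 8.70 times the next value. Cluster 14 held 66.8% of the summed SCM level, against a median of 15.04% in the top cluster over the 13016 genes past the floor. In the non-hair cluster 6 SCM stood at 0.0105, and in the hair clusters 1 and 2 at 0.0551 and 0. None of the 8 marker lists had its highest sum in cluster 14, where the Casparian strip markers of endodermis summed to 0.771, against 241 in cluster 16.

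WER, the MYB that starts the non-hair programme, reached the floor in 6 nucleus clusters, more than any other of the 10 genes. Its level was 2.66 in cluster 7, 2.50 in cluster 9, 1.83 in cluster 6, 1.43 in cluster 3, 1.27 in cluster 10 and 0.705 in cluster 12. Together these clusters held 82.7% of its summed level. The highest value outside them was 0.420 in cluster 8, and WER was listed at 0 in cluster 20. The top 2 values differed by a ratio of 1.07, so no order between clusters 7 and 9 is read from them. The hair clusters 1 and 2 had 0.279 and 0.315, but cluster 3, with the third highest root hair marker sum (40.2), had 1.43.

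MYB23, which reinforces the non-hair fate set by WER, was sparse in nuclei. It reached 0.322 in cluster 6, 0.106 in cluster 12 and 0.105 in cluster 3, which also had root hair markers. It was listed at 0 in 10 clusters, including the hair clusters 1 and 2. The 6 clusters that held WER also held 91.2% of the MYB23 level.

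The bHLH partners GL3 and EGL3 were highest in clusters 2 and 9, and not in the non-hair cluster 6. EGL3 was at 1.04 in cluster 9, 0.684 in cluster 3 and 0.323 in cluster 10, against 0.131 in cluster 6 and a median of 0.0474. GL3 was at 0.532 in cluster 2, 0.481 in cluster 9 and 0.320 in cluster 3, against 0.136 in cluster 6. The pair parted in cluster 2, which had the second highest root hair marker sum, and where EGL3 stood at 0.00862. Summed over both genes, the level was 1.52 in cluster 9, 1.003 in cluster 3 and 0.541 in cluster 2, and it was 0.267 in cluster 6. Their relative MYC1, another bHLH of the same subfamily, was likewise at 0.779 in cluster 3 and 0.729 in cluster 9, with 0.102 in the next cluster. The scaffold gene TTG1 had no comparable peak. It ran from 0.0916 in cluster 16, through a median of 0.259, to 0.535 in cluster 19, and its top cluster held 9.65% of its summed level.

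GL2, the output of the complex, was concentrated in the non-hair cluster, although its annotated gene overlaps a non-coding gene and counting by strand is not stated. It was at 1.51 per 10000 in cluster 6, 0.546 in cluster 7, 0.216 in cluster 1 and 0.211 in cluster 9, with a median of 0.0473 and 0 in 4 clusters. Cluster 6 held 47.1% of its summed level, more than in 90.1% of the genes past the floor. The ratio of GL2 to WER compares the clusters that hold WER without comparing the genes' levels. It was 0.828 in cluster 6, 0.205 in cluster 7, 0.0847 in cluster 9, 0.0547 in cluster 3 and 0.0248 in cluster 10, and GL2 was listed at 0 in cluster 12. Clusters 9 and 3 thus had WER together with the highest bHLH levels but a low GL2 level beside WER. Clusters 6 and 7 combined WER with GL2 and less bHLH RNA.

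Among the inhibitors, CPC had a pair of peaks. It was at 1.41 in cluster 6 and 1.33 in cluster 20, then 0.581 in cluster 8 and 0.563 in cluster 7, with a median of 0.181 and a lowest value of 0.00610 in cluster 14. The hair clusters 1 and 2 were low, at 0.0588 and 0.105. TRY was barely counted. It reached 0.185 in cluster 7, 0.120 in cluster 6 and 0.102 in cluster 10 and was listed at 0 in 14 clusters. ETC1 lay mainly outside the epidermal clusters. Clusters 17 to 21 held 65.9% of its summed level, with 0.381 in cluster 18, 0.304 in cluster 21, 0.2499 in cluster 19 and 0.1999 in cluster 17, and cluster 8 had 0.2495. The pericycle markers were highest in cluster 18, the phloem markers in cluster 19 and the xylem markers in cluster 21. Cluster 6 had 0.0583 of ETC1, and clusters 1, 2 and 3 were listed at 0.

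Over the 21 clusters, the log2 levels of the genes were correlated as a description only, since all clusters come from the same pooled libraries. Among 45 pairs the median Pearson correlation was 0.17, and 9 pairs reached 0.6. WER was most like EGL3 (0.79), GL3 (0.72) and MYB23 (0.71). GL2 had its highest values with MYB23 (0.67), CPC (0.63), TRY (0.61) and WER (0.61), against 0.40 with GL3 and 0.32 with EGL3. That order did not hold on ranks. With MYB23 and TRY, both under the floor, Spearman correlation was 0.19 for MYB23 and 0.26 for TRY, against 0.50 with GL3 and 0.38 with EGL3. GL2 with CPC was 0.51 on ranks in nuclei, but 0.0015 in whole cells, where GL2 was under the floor. The highest value of TTG1 with any other gene of the set was 0.16, with GL3, and that of ETC1 was 0.17, with CPC.

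The 5 genes most like each patterning gene were listed among all genes past the floor. For WER they were UGT85A1 (AT1G22400, Pearson 0.93), MLO4 (AT1G11000, 0.90), ATS (AT5G42630, 0.90), AT1G75710 (0.90) and EIR1 (AT5G57090, 0.90), the auxin efflux carrier gene also known as PIN2. For GL2 they were AT5G60520 (0.82), COBL5 (AT5G60950, 0.82), AT1G07175 (0.81), BAS1 (AT2G26710, 0.81), which encodes a brassinosteroid-inactivating enzyme, and AT3G16370 (0.81), all highest in cluster 6. For CPC the nearest were AT3G57800 and AT5G09960 (0.82 each), AT3G62570 (0.81), the expansin-like gene EXLA2 (AT4G38400, 0.79) and the jasmonate synthesis gene AOC3 (AT3G25780, 0.78). EGL3 was nearest to AT1G20220, MEE67 (AT3G10110), PRMT10 (AT1G04870), MSH7 (AT3G24495) and AT3G14540, between 0.86 and 0.87, each highest in cluster 9. GL3 was nearest to AT5G55400, UMAMIT13 (AT2G37450), AT2G02690, PARP2 (AT4G02390) and AT5G40540, between 0.79 and 0.80. SCM was nearest to SLY2 (AT5G48170, 0.92), HA4 (AT3G47950, 0.91), AT2G33205 (0.90), AT5G14230 (0.89) and AT2G18360 (0.89), all highest in cluster 14. TTG1 had no close neighbour, the best being AT3G11530 (0.62), UBP17 (AT5G65450, 0.59), AT2G36330 (0.59), DGS1 (AT5G12290, 0.58) and MAN2 (AT2G20680, 0.58). These lists are fragile: with Spearman correlation 8 of the 35 entries stayed, and without each gene's highest cluster 9 of 35.

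The whole-cell table was compared next, over the 20 clusters that both tables have. Of the 3 patterning genes past the floor in both tables (WER, TTG1 and CPC), 0 had the same leading cluster in whole cells and in nuclei, against 37.4% of 6399 genes. Nothing is read from a count of 3 genes. The top 2 nucleus values were also close, at a ratio of 1.07 for WER and 1.06 for CPC. GL2 and MYB23, GL2 under the floor in whole cells and MYB23 in nuclei, led in cluster 6 in both. The ranking over clusters was nonetheless similar for several genes. The Spearman correlation between the tables was 0.76 for CPC, 0.75 for ETC1, 0.73 for WER and 0.70 for MYB23, with a median of 0.58 over all genes past the floor and 0.34 for TRY, the lowest of the set.

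WER in whole cells was highest in cluster 10 at 5.32 per 10000, followed by cluster 9 at 3.14, cluster 7 at 1.98, cluster 12 at 1.06 and cluster 6 at 0.714. In nuclei those clusters had 1.27, 2.50, 2.66, 0.705 and 1.83. Cluster 3 had 0.158 in whole cells and 1.43 in nuclei, and cluster 8 had 0.0229 in whole cells and 0.420 in nuclei. The root cap marker sum in cluster 10 was 3.55 in whole cells and 0.0824 in nuclei, and in cluster 7 it was 2.55 in whole cells and 1.83 in nuclei. The part of root cap cells in the WER values was not tested.

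MYB23 was higher in whole cells than in nuclei in all 20 shared clusters. It was at 1.92 in cluster 6, 1.18 in cluster 12, 0.841 in cluster 9, 0.769 in cluster 3 and 0.722 in cluster 7 of whole cells. CPC was higher in whole cells in 18 of 20 clusters and reached 0.5 per 10000 in 16 of them, where nuclei had 4. Its whole-cell peaks were 2.05 in cluster 13, 1.96 in cluster 20, 1.497 in cluster 8, 1.40 in cluster 12 and 1.22 in cluster 6. ETC1 again lay in clusters 17 to 21, with 64.4% of its summed level and a peak of 0.505 in cluster 21. The bHLH genes, GL2 and SCM had low levels in whole cells: their highest clusters were 0.0728 for GL2 in cluster 6, 0.0542 for GL3 and 0.0442 for EGL3 in cluster 3, and 0.0215 for SCM in cluster 9.

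**Figure D2:**
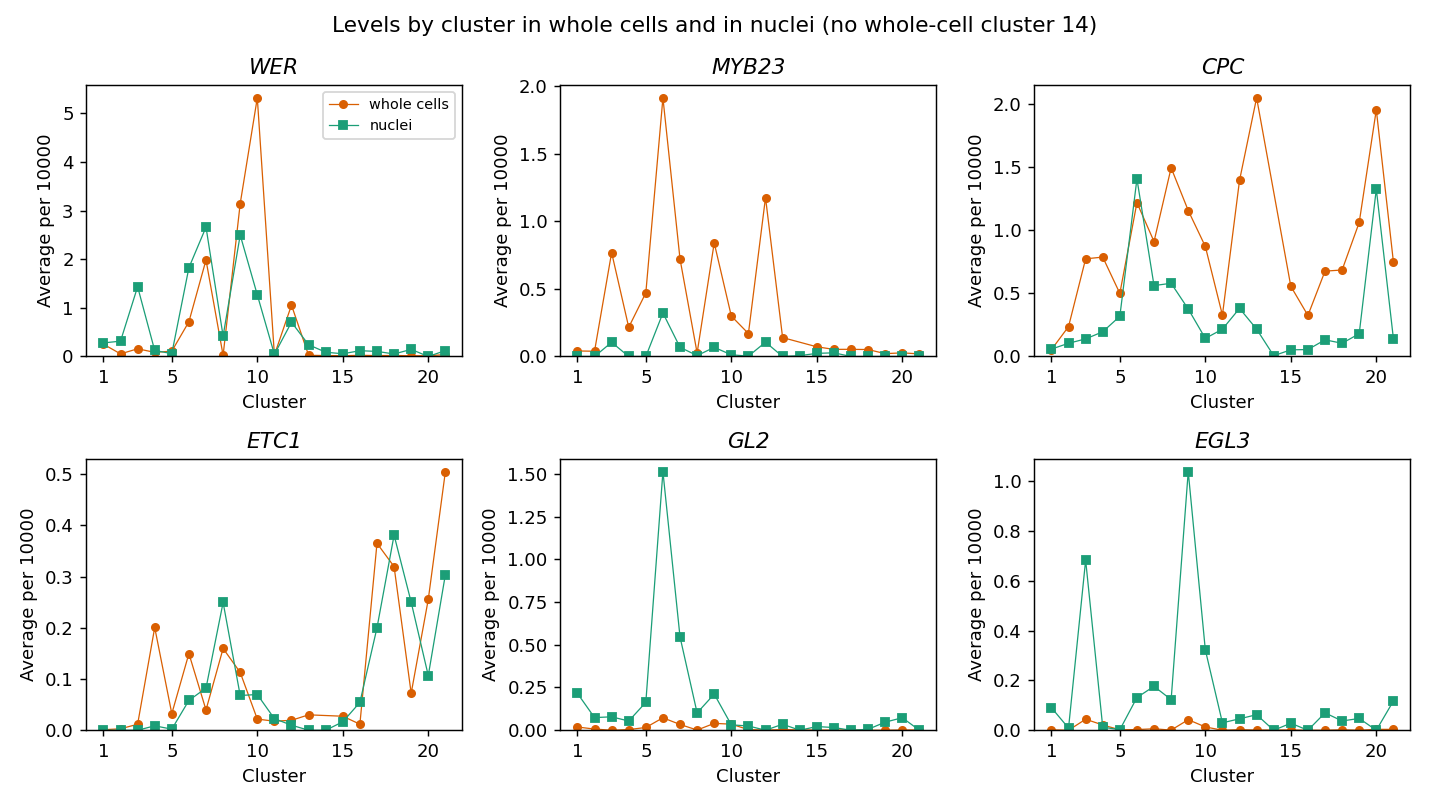
Average per 10000 in each cluster for 6 patterning genes, in whole cells (orange circles) and in nuclei (green squares). MYB23 is higher in whole cells in every shared cluster, GL2 and EGL3 are near the axis in whole cells, and WER peaks in cluster 10 of whole cells and in cluster 7 of nuclei. The thin lines join clusters by number and show no order in time.

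Averaged over the 20 shared clusters, the set split by direction. These clusters leave out cluster 14, where SCM was at 4.21 in nuclei. In the rest SCM did not pass 0.484 in nuclei and 0.0215 in whole cells, both under the floor of 0.5. The mean was 0.00312 in whole cells and 0.105 in nuclei for SCM (33.6-fold lower as a plain ratio), and 0.00731 in whole cells and 0.152 in nuclei for EGL3 (20.7-fold lower). It was 0.0122 in whole cells and 0.161 in nuclei for GL2 (13.1-fold lower), and 0.0113 in whole cells and 0.107 in nuclei for GL3 (9.49-fold lower). MYB23 had a mean of 0.356 in whole cells and 0.0371 in nuclei, a 9.61-fold higher plain ratio, and CPC 0.891 in whole cells and 0.335 in nuclei, 2.66-fold higher. The other 4 lay close to parity in these means. WER was at 0.655 in whole cells and 0.624 in nuclei. By cluster, however, WER was lower in whole cells in 15 of 20 and higher in 5. Cluster 10, at 5.32 in whole cells and 1.27 in nuclei, held 40.6% of the summed whole-cell WER level. TTG1 was at 0.237 in whole cells and 0.264 in nuclei. ETC1 was at 0.118 in whole cells and 0.0941 in nuclei, and TRY at 0.0286 in whole cells and 0.0240 in nuclei. With 0.1 added to each mean and a floor of 0.5 on either mean, only WER and CPC passed, and CPC was past 2-fold higher (19.8% of 6552 genes were called higher and 43.4% lower). CPC passed through whole cells alone, so nothing is read from that call, and with the highest cluster of each table its log2 ratio was 0.51, under 2-fold. With a floor of 0.1 on either mean, set after the values were seen, 9 genes passed, with MYB23 and CPC past 2-fold higher (10.4% of 15267 genes) and EGL3 and GL2 past 2-fold lower (42.2%). Of these, MYB23 passed through whole cells alone and EGL3 and GL2 through nuclei alone, which fixes their direction, so the calls add nothing to the means above. On this scale the median over genes past the floor of 0.5 was -0.67. Relative to it, MYB23 stood at 2.41, CPC at 1.86 and WER at 0.73, while EGL3 stood at -0.56 and GL2 at -0.54. TTG1 changed sign: it stood at 0.56 relative to the median gene and at -0.11 as computed.

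The split followed the length of the gene on the chromosome, introns included. SCM (4743 bp), GL2 (4485 bp), GL3 (4198 bp) and EGL3 (3752 bp) were the 4 longest and had the 4 lowest ratios. The 6 genes from ETC1 (972 bp) to TTG1 (2531 bp) lay between 0.900 and 9.61. The 4 longest reached a mean of 0.1 in nuclei alone, and MYB23 and ETC1 in whole cells alone. That fixes the direction of these genes under the floor used below, so nothing about length is read from it. Across all genes at 0.1 or more in either mean and above 0 in both, the plain ratio of whole cells to nuclei also fell with length. Its median was 1.40 for 696 genes under 1000 bp, 1.07 from 1000 to under 1500 bp, 0.797 to under 2000 bp, 0.481 to under 3000 bp, 0.296 to under 4000 bp and 0.142 for 2677 genes of 4000 bp or more. The Spearman correlation of length with the log2 ratio was -0.51 over 15078 genes, which are not independent replicates. Against genes of like length, GL3 and GL2, at 0.105 and 0.0761, were within the middle quartiles (0.0738 to 0.266). SCM, at 0.0297 without its main nucleus cluster 14, was below them, and EGL3, at 0.0482, was below the lower quartile of its bin (0.144). MYB23 was above the upper quartile of its bin (1.75), and CPC, at 2.66, slightly above that of its own (2.50). WER, TTG1 and ETC1 were within theirs. TRY was too, but its means lay under the floor of 0.1 that the genes of the bins had to pass. What length stands for here was not tested.

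**Figure D3:**
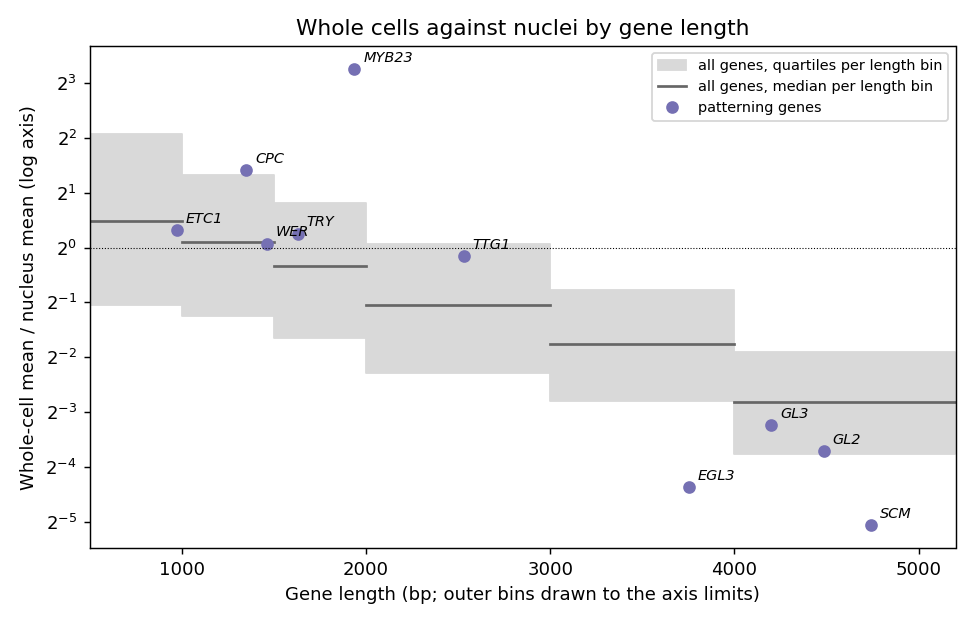
Plain ratio of the whole-cell mean to the nucleus mean (log axis) against gene length in bp. Points are the 10 patterning genes, and grey boxes with a line are the quartiles and median of all genes in each length bin. The 4 longest genes have the lowest ratios, and MYB23 at 9.61 is the highest of the set.

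In bulk RNA, 6 of the 10 genes passed a floor of 5 FPKM in either library, and all 6 passed it in both. The shares over all genes rest on the floor in either library. FPKM counts fragments per transcript length and library size, and the unit was read from the values because the table does not name it. In intact root tips the order was CPC at 40.5, WER at 39.2, TTG1 at 25.1, GL2 at 9.69, ETC1 at 6.00, MYB23 at 5.54, EGL3 at 4.69, GL3 at 4.20, SCM at 2.42 and TRY at 1.55. With no replicate, neighbours as close as CPC and WER cannot be ordered. Of the 6, MYB23, CPC and ETC1 were 2-fold higher in protoplasts, where 11.4% of 15110 genes were higher, and 0 were lower, where 30.3% were. MYB23 was at 28.6 FPKM in protoplasts and 5.54 in intact tips, and CPC at 109 in protoplasts and 40.5 in intact tips. ETC1 was at 15.6 in protoplasts and 6.00 in intact tips. With a pseudocount of 1 FPKM the fold was 4.53 for MYB23, 2.65 for CPC and 2.37 for ETC1.

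WER was at 20.8 FPKM in protoplasts and 39.2 in intact tips. TTG1 was at 17.2 in protoplasts and 25.1 in intact tips, and GL2 at 13.3 in protoplasts and 9.69 in intact tips. All 3 were within 2-fold. Over all genes past the floor the median log2 ratio was -0.46. Relative to it WER stood at -0.42, TTG1 at -0.07 and GL2 at 0.88, and MYB23, CPC and ETC1 at 2.64, 1.86 and 1.70. Below the floor, GL3 was at 3.32 in protoplasts and 4.20 in intact tips. EGL3 was at 3.03 in protoplasts and 4.69 in intact tips, and TRY at 1.56 in protoplasts and 1.55 in intact tips. SCM was at 0.174 in protoplasts and 2.42 in intact tips, and would count as 2-fold lower with a floor of 1 FPKM or none. It passes a floor of 1 FPKM through intact tips alone, which fixes its direction, so nothing is read from that call. Fewer cells of a type and less RNA per cell cannot be told apart in such libraries. The 3 non-hair markers summed to 412 FPKM in protoplasts and 493 in intact tips, with 0 of 3 past 2-fold. The 8 root hair markers summed to 1379 in protoplasts and 2384 in intact tips, with 2 lower. The 3 root cap markers summed to 105.5 in protoplasts and 28.1 in intact tips, with 2 higher. The other lists moved as well. Pericycle markers summed to 3.78 FPKM in protoplasts and 83.5 in intact tips, and mitosis markers to 7.07 in protoplasts and 34.4 in intact tips. Phloem markers summed to 51.1 in protoplasts and 16.3 in intact tips, and xylem markers to 142 in protoplasts and 84.1 in intact tips. Endodermis markers summed to 1088 in protoplasts and 2030 in intact tips. In nuclei ETC1 lay mainly in clusters 17 to 21, which hold the pericycle, phloem and xylem peaks. The part of these cell types in the results was not tested. In low genes the worth of a lone fragment in intact tips was 0.802 of that in protoplasts, so the intact library was about 1.25 times as deep.

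**Figure D4:**
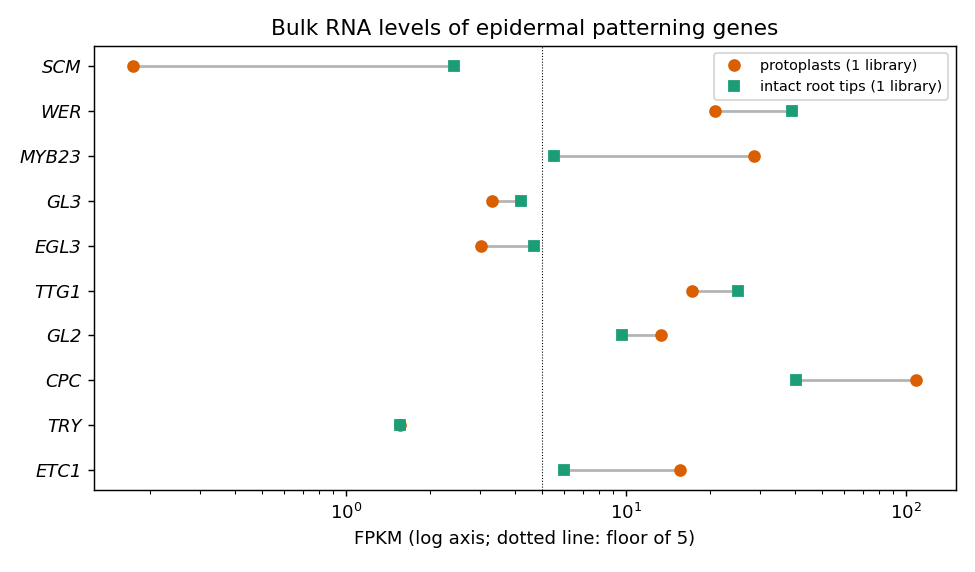
FPKM on a log axis for each patterning gene in the protoplast library (orange circles) and the intact root tip library (green squares), 1 library each, with the floor of 5 FPKM as a dotted line. MYB23, CPC and ETC1 are higher in protoplasts, and SCM, under the floor, is at 0.174 in protoplasts and 2.42 in intact tips.

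CPC, MYB23 and ETC1 were the 3 genes higher in protoplasts. Their plain ratios of whole cells to nuclei were 2.66 for CPC, 9.61 for MYB23 and 1.25 for ETC1. On those means CPC passed the higher floor, and MYB23 and ETC1 the lower one, through whole cells alone. That fixes their direction, so nothing about the bulk result is read from these ratios. Whether the whole cells were protoplasts is not stated.

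The wider pathway lists were read the same way. Of the 7 short MYB inhibitors, CPC and ETC1 were the only ones past the bulk floor. ETC2, TCL1 and TCL2 were listed at 0 in both bulk libraries, and TCL2 also in every nucleus cluster. ETC3 (AT4G01060) had a pattern of its own: it was at 1.07 in nucleus cluster 19, where phloem markers were highest, and at 0.0244 in the next, so that cluster held 96.2% of its level, and it did not pass 0.00897 in whole cells. Of 12 complex partners and upstream regulators, 7 passed the bulk floor in either library. JKD (AT5G03150), ZFP6 (AT1G67030) and HDA19 (AT4G38130) were 2-fold lower in protoplasts (30.3% of all genes were). ZFP5 (AT1G10480), at 8.50 FPKM in protoplasts and 1.01 in intact tips, passed through protoplasts alone, so nothing is read from its direction. Relative to the median gene, ZFP5 and TTG2 (AT2G37260) were 2-fold higher (17.4% of all genes) and JKD 2-fold lower (18.8%), and nothing is read from such counts of 7 genes. In nuclei JKD, a zinc finger gene that acts from the cortex on epidermal patterning, was at 1.93 in cluster 12 and 1.74 in cluster 13. ZFP5, a zinc finger gene of hair initiation, was highest in cluster 14 like SCM, at 2.49. GEM (AT2G22475), a regulator that restrains GL2, was spread over clusters 6, 13 and 2 at 1.22, 1.17 and 1.09. QKY (AT1G74720), a partner of SCM, was at 1.39 in cluster 19 and 0.643 in cluster 20.

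Of the 8 hair regulators that act below GL2, 6 passed the bulk floor, with RHD6 (AT1G66470) at 105.1 FPKM in protoplasts and 14.5 in intact tips and RSL2 (AT4G33880) at 11.1 in protoplasts and 27.7 in intact tips. In nuclei RHD6 and RSL1 (AT5G37800) were highest in cluster 3, at 1.43 and 0.624, the cluster that also held WER and EGL3. RSL2, RSL4 (AT1G27740) and LRL3 (AT5G58010) were highest in cluster 2. LRL1 (AT2G24260) and LRL2 (AT4G30980) were instead highest in cluster 16, at 2.70 and 3.92, where the endodermis markers summed to 241. RSL3 stayed under the floor. Of the 15 relatives of GL2 in the HD-ZIP IV family, 10 were in the cluster tables and ANL2 (AT4G00730) alone of them reached the nucleus floor, with 1.22 in cluster 9, 1.17 in cluster 7 and 0.863 in cluster 3. ANL2 thus peaked in clusters that held WER, and it was not highest in cluster 6.

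Accessible chromatin overlapped all 10 genes. ATAC-seq marks DNA that a transposase can reach, and each value here is the average signal of a region in a cluster, with every cluster scaled to 10000. The table gave 14 regions that overlap a gene of the set by 1 bp or more, 2 each at SCM, WER, GL3 and GL2 and 1 at each other gene. Coordinates are those of the deposited table on the TAIR10 build. The regions were wide, from 998 bp at MYB23 to 10436 bp at CPC, so some cover other genes too: the CPC region (chromosome 2, 19044684 to 19055119) covers 3 genes in all. Some wide regions varied little, those of CPC and ETC1 among them. The CPC region ran from 0.354 in cluster 21 to 0.675 in cluster 4. Its SD over clusters divided by its mean lay at percentile 7.70 of all regions, and that of the MYB23 region at percentile 92.1.

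For the region over MYB23 and for a WER region, the signal was highest in clusters that also held the gene's RNA. The MYB23 region (chromosome 5, 16127374 to 16128371) was at 1.60 in cluster 6, 1.49 in cluster 3 and 1.27 in cluster 12, with a median of 0.352 and 0 in cluster 19. These were the same 3 clusters in which MYB23 RNA was highest in nuclei. The WER region at chromosome 5, 4764560 to 4768758, was at 1.26 in cluster 7, 1.04 in cluster 3 and 0.948 in cluster 6, with 0.710 in cluster 9. The other WER region (4760727 to 4763868) differed: it was at 1.50035 in the hair cluster 1, where WER RNA was 0.279, then 1.09 in cluster 6 and 1.05 in cluster 7.

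At GL2 the region from 30033368 to 30037899 on chromosome 1 was highest in cluster 6 at 0.843, with a median of 0.418, and the region from 30038541 to 30042713 was highest in cluster 2 at 0.785, with 0.6998 in cluster 6. That second region covers 4 genes in all, and the first overlapped GL2 by 944 of 4532 bp and covered 1 other gene. At SCM, both regions had their highest value in cluster 14, where its RNA was highest, and each covered 1 other gene. The region from 3726476 to 3728129 on chromosome 1 was at 1.68 in cluster 14, against 0.864 in the next cluster and a median of 0.415. The other, from 3718572 to 3723092, was at 0.771 in cluster 14 and 0.755 in cluster 17, too close to order. It overlapped SCM by 385 of 4521 bp.

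The bHLH genes and the inhibitors gave less. The inner GL3 region (chromosome 5, 16529912 to 16533233) was at 0.996 in cluster 1 and 0.805 in cluster 2. The other GL3 region (16526519 to 16529291) was highest in cluster 19 at 0.853, with 0.405 in cluster 2, where GL3 RNA was highest. The EGL3 region (chromosome 1, 23600080 to 23602783) was at 0.847 in cluster 20 and 0.768 in cluster 9. The TRY region (chromosome 5, 21582493 to 21584092) was at 1.08 in cluster 10, 0.9498 in cluster 7 and 0.887 in cluster 9, 3 of the 5 clusters with the most TRY RNA in nuclei. Within 2 kb of EGL3 a short region that does not overlap the gene (chromosome 1, 23604681 to 23605230, 550 bp) was at 2.45 in cluster 6, the highest value of any region examined, against 1.25 in cluster 10 and a median of 0.465. It overlaps 1 other gene. A region 258 bp from MYB23 (chromosome 5, 16129919 to 16130525) differed from the one over the gene, with 1.79 in cluster 14, 1.71 in cluster 7 and 1.46 in cluster 5.

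**Figure D5:**
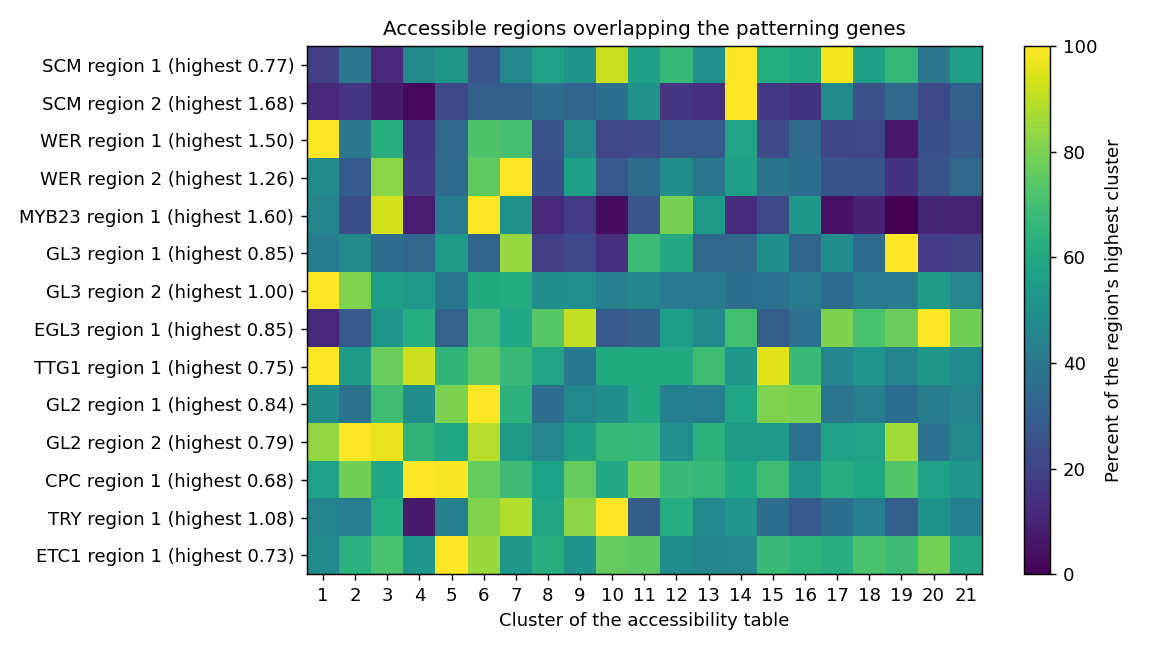
Signal of the 14 accessible regions that overlap the patterning genes in the 21 clusters, each row as a percent of its highest cluster, whose value per 10000 is given beside the name. Both SCM regions are highest in cluster 14, the wider of them only narrowly above cluster 17. The MYB23 region peaks in clusters 6, 3 and 12, and the CPC and ETC1 regions vary little.

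With the regions of each gene summed, the leading cluster of accessibility was also that of nucleus RNA for SCM (cluster 14), WER (cluster 7), GL2 (cluster 6) and MYB23 (cluster 6, its RNA under the floor), and not for the other 6. Over 12914 genes past the floor with a region, the leading clusters were the same in 21.1%. The WER regions overlapped the gene by 497 of 3142 bp and 275 of 4199 bp and each covered 1 other gene. Where the gene had to cover 0.5 of the region, WER had no region and GL2 led in cluster 2, so SCM and MYB23 were the 2 matches left, of 7 genes. The Spearman correlation of accessibility with RNA over the 21 clusters was 0.59 for SCM, 0.56 for MYB23, 0.51 for WER, 0.45 for GL2 and 0.43 for TRY, with a median of 0.30 over all genes and quartiles of 0.05 and 0.53. It was -0.35 for TTG1, the lowest of the set. How clusters were matched between assays is not stated in the sources used here, so the tables may not be independent.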

How the data were processed

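The genes, lists and comparisons were chosen with earlier results of these data known. The submitters' processing notes name SAMtools 0.1.19, Bowtie2 2.1.0, TopHat2 2.0.11, Signac 0.2.5, Seurat 3.1.5, Cell Ranger ATAC 1.2, Cell Ranger 3.1.0 and the TAIR10 build, without saying which files each made. The authors deposited the bulk values in a form read here as FPKM, since column totals differ and ratios of low genes fall on simple fractions. The deposited cluster tables hold an average signal per gene or region and cluster. The RNA columns sum to 10000, and the accessibility columns, with totals from 10532 to 14125, were scaled to 10000. Doublet treatment is not given in the sources used here, and depth and nuclei per cluster are unknown.

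Calculations used NumPy 2.4.6 and pandas 2.3.3 under Python 3.11.15. Bulk ratios are log2 of FPKM plus 1, and ratios of cluster means are log2 of the mean plus 0.1, so they understate changes of low genes. Genes were named if they were in the set or in the 4 pathway lists or 8 marker lists, or were among the 5 most alike. ANL2 and the regions near EGL3 and MYB23 were singled out after their values were seen. Regions were joined to genes through a RefSeq table of TAIR10.1, assumed to share the TAIR10 nuclear coordinates. GL2 and GL3 each overlap a non-coding gene and ETC1 overlaps the gene AT1G01390, so their reads are uncertain where strand was not used. The calculations were tested on simulated data.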

Additional observations from a re-analysis of the deposited data

How the results depend on the processing

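Bulk calls held under another pseudocount and under centring on the median gene. With a floor of 1 FPKM or none, 1 gene (SCM) was also 2-fold lower in protoplasts, in place of 0. SCM passed the floor of 1 FPKM through intact tips alone, and no share over all genes is given for these 2 settings. For whole cells against nuclei, 1 gene was 2-fold higher and 0 lower at the floor of 0.5. With no floor, or with a floor of 0.1 added after the data were seen, 2 were higher and 2 lower. With the highest cluster of each table, 3 were lower, and the 1 higher was MYB23 in place of CPC, which stood at a log2 ratio of 0.51, against 1.19. Here GL2, GL3 and EGL3 passed through nuclei alone and MYB23 through whole cells alone, which fixes their direction. Nothing is read from these calls, and no share over all genes is given for this setting or without a floor. A shared leading cluster of whole cells and nuclei was found for 0 of 3 genes, for 1 of 6 with a floor of 0.1 and for 1 of 3 when the nucleus leader had only to be among the 3 highest whole-cell clusters. The floors admit more genes by construction. Regions numbered 25 within 2 kb of the genes and 7 where the gene had to cover 0.5 of the region, by construction again, and 2 of 7 genes then had the same leading cluster as RNA, against 4 of 10, with WER and GL2 lost. Without cluster 20, the coarsest, no count moved by more than 1.5 times, and 5 of 10 shared a leading cluster of accessibility and RNA. No ratio past 2-fold reversed its sign. Among smaller ones, centring turned TTG1 in whole cells against nuclei (0.56, from -0.11) and GL3 in bulk (0.19, from -0.27), and EGL3 and GL2 in whole cells, at -0.56 and -0.54, no longer reached 2-fold. No paired analysis was possible because the tables average the numbered libraries. A value counted as moved past 1.5-fold, since no replicate spread exists.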
